A study of Rattus norvegicus with 28 samples.

Results

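Mitochondria carry their own ribosome, which makes only the few inner membrane proteins that the mitochondrial genome encodes. Its ribosomal RNAs come from that genome, while all of its proteins are encoded in the nucleus, made in the cytosol and imported. The large subunit forms peptide bonds and the small subunit decodes messenger RNA. Some of the proteins have counterparts in bacterial ribosomes, and others are found only in mitochondria. The genes described here are those whose symbols in the deposited expression table read Mrpl (large subunit) or Mrps (small subunit) followed by a number. This gave 75 of the 30178 genes of the table, 45 with large subunit symbols and 30 with small subunit symbols. The spelling was taken as the table has it, so 3 genes written in lower case (mrpl9, mrpl11 and mrpl24) fell outside the rule. A few symbols do not match the place of the protein: as background, Mrps30 and Mrps18a sit in the large subunit despite their small subunit names, and Mrps36 is now known as a subunit of a dehydrogenase complex of the citric acid cycle.

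Expression was measured by RNA-seq of polyadenylated RNA from NRK-49F, an established line of rat kidney fibroblasts, with 2 libraries in each of 4 groups. Control cells had no listed treatment and no time in their labels, and the other groups all received transforming growth factor β1 (TGF-β, the cytokine that turns fibroblasts into matrix-producing myofibroblasts) at 5 ng per uL for 48 h, as the labels print the dose. The first of these had TGF-β alone. In the MetR group TGF-β was combined with methionine restriction, a medium with 30 uM methionine against 200 uM in its control medium. In the siHoxc8 group it was combined with silencing of Hoxc8, a homeobox transcription factor, by siRNA. All cells had been starved for 24 h in 0.2% serum. The title of the series sets methionine restriction against a path from TGF-β to Hoxc8 in kidney fibrosis. None of the RNA-seq groups is labelled with a control siRNA, so transfection and loss of Hoxc8 cannot be told apart. Whether the control and TGF-β groups had the 200 uM medium is not stated, so the make-up of the medium and the supply of methionine cannot be told apart either. Each group is 1 cell line, and the labels do not say that its 2 libraries came from separate cultures, so all p-values rest on a spread that may be technical.

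Values are FPKM, fragments per kilobase of gene scaled to library size, which allows levels of different genes to be compared. Changes are log2 fold changes ± SE of FPKM + 1 from limma, fitted over 12315 genes that reached 1 FPKM in 2 libraries or more, and a gene is called higher or lower at a Benjamini-Hochberg adjusted p under 0.05 over all of these genes. The libraries held 15131882 to 20164929 reads counted on genes, of which 35587 to 61805 per library fell on the 75 genes. The targeted gene Hoxc8 was checked against the labels. It stood at 1.12 and 1.34 FPKM in control, 4.32 and 5.01 with TGF-β, 0.417 and 0.614 with MetR, and 0.463 and 0.0771 with siHoxc8. Of 8 fibroblast markers 7 were in the table, with Col1a1, Col3a1, Vim and S100a4 highest and Thy1 listed at 0 in every library. Pdgfrb lay between 6.91 and 31.6 FPKM. Dcn, highest in control, did not reach 1 FPKM in 2 libraries. It stood at 0.0993 and 0.0655 FPKM with TGF-β, 0.319 and 0.399 with MetR, and 0 in both siHoxc8 libraries. Col3a1, a fibrillar collagen, stood at 247 and 269 FPKM in control, 367 and 374 with TGF-β, 506 and 105 with MetR, and 2588 and 2786 with siHoxc8. Of the markers of other cell types, all 3 endothelial genes in the table, 3 of 4 leukocyte genes and 4 of 5 epithelial genes stayed under 1 FPKM in every library. The exceptions were Cd68, a leukocyte gene, and Krt8, an epithelial keratin. Cd68 lay between 0.399 and 2.68 FPKM and was called lower with siHoxc8 than with TGF-β (-0.81 ± 0.27). Krt8 took the epithelial sum from between 193.5 and 251.9 FPKM in the other groups to between 645.6 and 685.3 FPKM with siHoxc8. The part of Col3a1, Cd68 and Krt8 in the siHoxc8 results was not tested. In bulk RNA, fewer cells and less RNA per cell cannot be told apart.

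Start regions from RefSeq (build GRCr8) were matched by symbol for 60 of the 75 genes, among 27457 genes with an entry, each with 250 bases before and 50 after the annotated start. The sequences below are shown because they belong to the members that moved furthest apart: the 2 largest called rises and the 2 largest called falls under methionine restriction among members with an entry. Capitals mark a match to the ETS family motif CCGGAAG, read on either strand.
Mrps2 (chr3:32200977-32201076, plus strand): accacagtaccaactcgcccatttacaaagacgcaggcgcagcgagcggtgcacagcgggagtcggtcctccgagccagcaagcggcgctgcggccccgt
Mrpl50 (chr5:68668088-68668187, minus strand): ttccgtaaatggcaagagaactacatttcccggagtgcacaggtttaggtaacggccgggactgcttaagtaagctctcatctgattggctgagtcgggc
Mrpl52 (chr15:31852836-31852935, plus strand): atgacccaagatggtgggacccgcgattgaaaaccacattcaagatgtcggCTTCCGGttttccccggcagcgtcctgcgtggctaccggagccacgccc
Mrps10 (chr9:21122454-21122553, minus strand): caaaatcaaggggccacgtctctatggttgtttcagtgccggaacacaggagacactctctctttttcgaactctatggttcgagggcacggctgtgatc
Each holds the 100 bases before the start, 5′ to 3′ in the sense of the gene. Mrps2 and Mrpl50 are the risers and Mrpl52 and Mrps10 the fallers. GC content was 67.0% for Mrps2, 51.0% for Mrpl50, 61.0% for Mrpl52 and 51.0% for Mrps10. In these 100 bases only Mrpl52 held a match to any of the motifs searched, 49 bases before its start on the opposite strand. In the full start region Mrps10 also held an ETS match, beginning right after the bases shown. There Mrpl52 held 2 ETS matches, and Mrps2 and Mrpl50 held 0.

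In all start regions of 300 bases 6 motifs were searched on both strands, and overlaps between motifs were not removed. All start regions include those of genes not expressed here, and shares among expressed genes alone were not computed. ETS (CCGGAAG, bound by the GABP factor among others) was found in 20 of 60 members (33.3%) and in 9.22% of all start regions. NRF1 (the motif of nuclear respiratory factor 1, GCGCA followed by any base and GCGC) was found in 8 (13.3%, against 4.71%), and the GC box (GGGCGGG) in 20 (33.3%, against 24.2%). The YY1 motif, the 10 letters in capitals below, was found in 7 (11.7%), against 1.16% of all start regions. The E-box (CACGTG) was in 5 (8.33%, against 6.65%) and the TATA box (TATAAA) in 7 (11.7%, against 14.3%). A CACGTG match reads the same on both strands. The 7 YY1 matches are shown because they lie within the same short stretch of each gene, beginning 1 to 31 bases from the start counted from 1 at the first transcribed base, all on the strand of the gene. Capitals mark the motif.
Mrpl37 (chr5:127074942-127074971, minus strand): tgcccgggcaAAGATGGCGGcgtccaggta
Mrpl46 (chr1:142116987-142117016, minus strand): ggaagacggaAAGATGGCGGcgcccatagg
Mrpl50 (chr5:68668042-68668071, minus strand): gagcttgtcgAAGATGGCGGcgctgtgtgt
Mrps10 (chr9:21122404-21122433, minus strand): tcagggcaccAAGATGGCGGcgcgcgcagc
Mrps18a (chr9:22367361-22367390, minus strand): gtgtgttcccAAGATGGCGGccctcagggc
Mrps27 (chr2:32474223-32474252, plus strand): ggtacgctccAAGATGGCGGcccccatggt
Mrps30 (chr2:52195867-52195896, minus strand): gcggaggacaAAGATGGCGGctgccaggta
These 7 genes did not move as 1 group. Under methionine restriction, relative to TGF-β alone, Mrpl50, Mrpl46, Mrps30 and Mrps27 were called higher, Mrps10 was called lower, and Mrpl37 and Mrps18a were not called.

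A neighbouring gene started within 1000 bases on the other strand, pointing away, for 17 of the 60 members (28.3%). This held for 11.3% of all genes with a start region, expressed here or not. Among them Mrpl49 and Fau lay 186 bases apart, Mrpl32 and the proteasome subunit gene Psma2 210, and Mrpl47 and the complex I subunit gene Ndufb5 244. One pair consisted of 2 members, Mrps11 and Mrpl46, whose starts lie 234 bases apart, and the stretch between them is shown in the sense of Mrps11 with its TATAAA match, 82 bases before the Mrps11 start, in capitals.
Mrps11 and Mrpl46 (chr1:142117031-142117263, plus strand): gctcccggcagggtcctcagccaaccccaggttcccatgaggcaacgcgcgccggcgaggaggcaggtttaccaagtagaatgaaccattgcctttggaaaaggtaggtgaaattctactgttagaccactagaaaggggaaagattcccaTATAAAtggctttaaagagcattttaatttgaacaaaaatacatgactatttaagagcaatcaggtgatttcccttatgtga
The pair was picked after its values had been seen. Mrpl46, a large subunit protein without bacterial counterpart, stood at 12.3 and 11.9 FPKM with TGF-β and 21.6 and 31.6 with MetR. Mrps11, a small subunit protein with a bacterial counterpart, stood at 20.3 and 27.6 FPKM with TGF-β and 28.7 and 31.5 with MetR. Both sets of libraries lay apart in either gene, but only the change of Mrpl46 passed the test (1.06 ± 0.17, adjusted p = 0.00179 in limma, against 0.33 ± 0.15, adjusted p = 0.104 for Mrps11). With siHoxc8 against TGF-β Mrps11 gave 0.46 ± 0.15 (adjusted p = 0.0459) and Mrpl46 0.28 ± 0.17 (adjusted p = 0.218), and the call of Mrps11 was lost after median ratio rescaling (0.30, adjusted p = 0.145). The difference between the 2 genes was not tested.

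The genes were expressed over a wide range, with a median of 27.5 FPKM for the mean over the 8 libraries (27.8 for large and 26 for small subunit symbols). A total of 49 genes had a mean between 10 and 50 FPKM, and 67 stayed at or above 5 FPKM in every library. Mrpl33, the counterpart of a small bacterial large subunit protein, was highest, at 201 and 212 FPKM in control, 232 and 334 with TGF-β, 377 and 330 with MetR, and 268 and 222 with siHoxc8. Its lowest library lay above the highest of Mrpl23 (100.6 to 170 FPKM) and Mrpl17 (94.8 to 155 FPKM), which came next with overlapping ranges. Mrpl23 lies at the exit of the peptide tunnel. At the other end, Mrpl36 ranged from 0 to 2.65 FPKM (0 to 14 reads), Mrpl53 from 0.774 to 2.54 (5 to 15 reads) and Mrps21l from 0 to 0.928 (0 to 9 reads). Mrps21l, named as a relative of Mrps21, was the 1 member that missed the expression filter, which left 74 tested. Reads that a near copy shares with its relative could be split between them. The strand setting of the counting is not given in the sources used here, so reads of an overlapping gene on the other strand could not be told from a member's own.

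**Figure D1:**
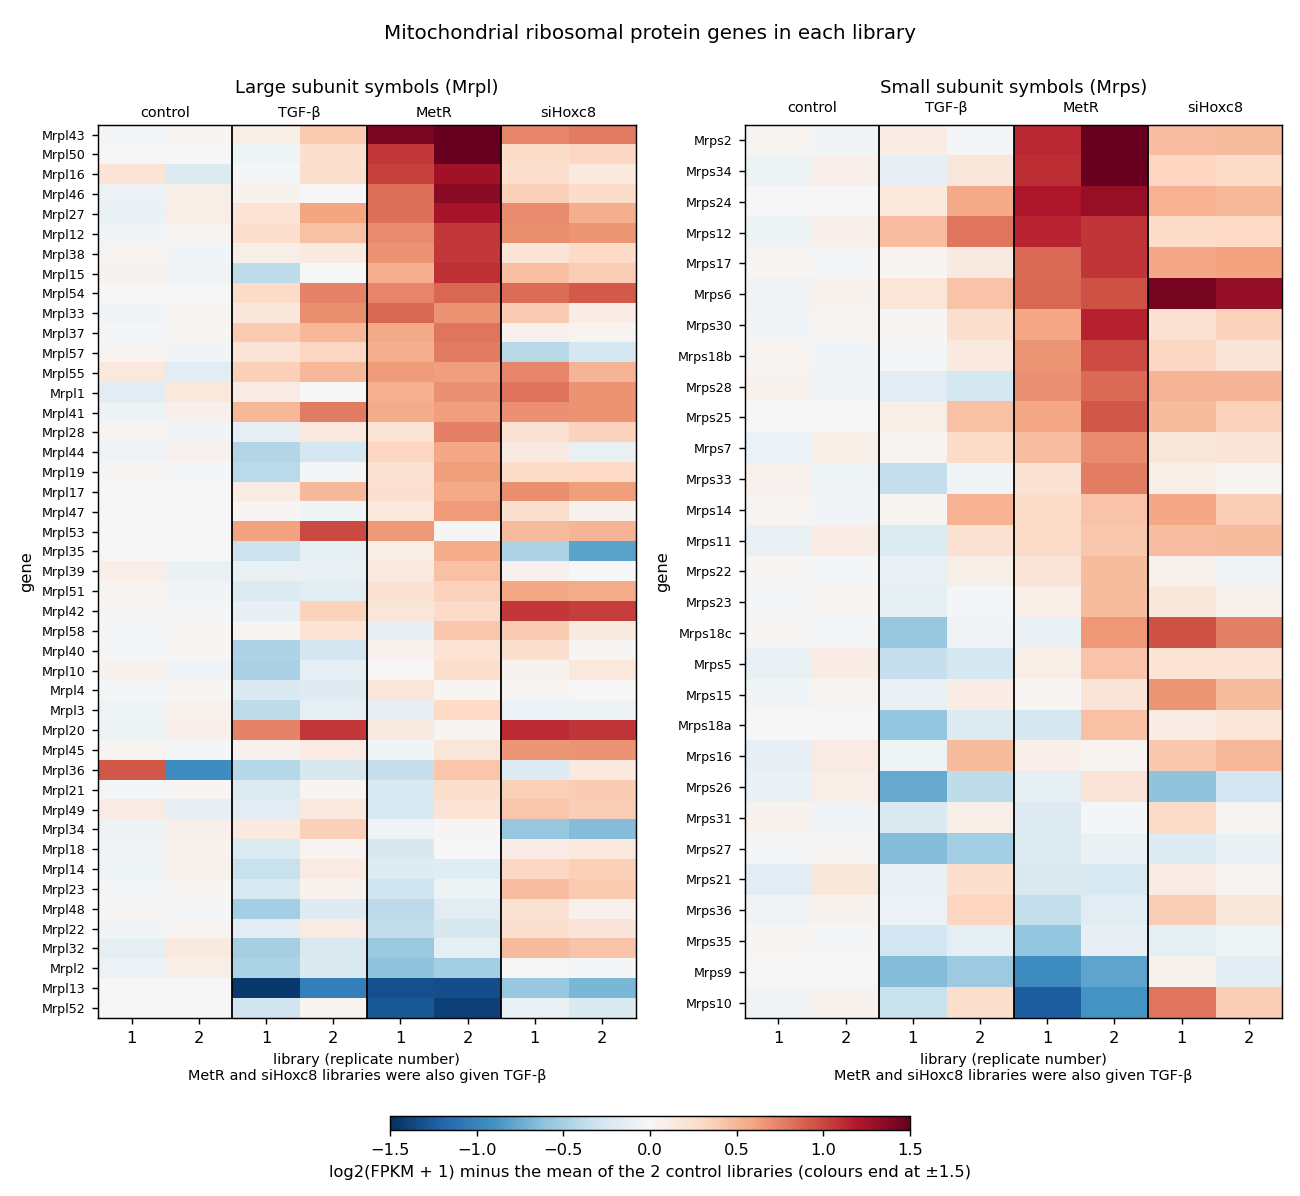
Colours give log2(FPKM + 1) of the 74 tested genes in each of the 8 libraries minus the mean of the control libraries, with large subunit symbols on the left and small subunit symbols on the right, ordered by the change of MetR against control. By this order the largest rises of MetR stand at the top (Mrpl43, Mrps2) and its largest falls at the bottom (Mrpl52, Mrps10). Mrpl13 is also deep blue in TGF-β replicate 1, and TGF-β replicate 1 is bluer than replicate 2.

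Summed over all 75 members, these genes took 0.495% and 0.506% of all FPKM in control and 0.492% and 0.563% with TGF-β. The share was 0.683% and 0.754% with MetR and 0.634% and 0.613% with siHoxc8. The libraries of both combined treatments thus lay above those of control and TGF-β alone. Within groups the replicates differed as a block in some cases. In the TGF-β group 69 of 74 tested genes were higher in replicate 2 than in replicate 1, by a median of 0.271 on the log2 scale, while over all genes the median was 0.031. In the MetR group 64 of 74 were higher in replicate 2 (median 0.235, against 0.074 over all genes). The control (44 of 74) and siHoxc8 (27 of 74) replicates differed less, with medians of 0.023 and -0.048. The offset between the TGF-β libraries enters every comparison with that group, and its source was not tested.

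On the deposited scale few of these genes were called with TGF-β alone, and in both directions. Of 74 tested genes, 7 (9.46%) were called higher and 4 (5.41%) lower than in control, against 10.3% and 28.6% of all genes tested. The median change was 0.00 while that of all genes was -0.19. After rescaling each library by its median ratio, which brings the median of all genes to 0.00, 21 were higher and 3 lower (all genes 18.5% and 17.4%) and the median of the members was 0.21. The count of genes called higher therefore depends on the scaling. It also depends on the libraries kept, though for fits without 1 library, here and below, shares of all genes are not given. It was 3 without either control library or without TGF-β replicate 2, 12 without TGF-β replicate 1, and 4 without either siHoxc8 library, which add only to the estimate of spread. The count called lower was 11 without either MetR library.

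Mrpl20, whose bacterial counterpart binds ribosomal RNA early in large subunit assembly, had the largest rise. It stood at 58.6 and 65.1 FPKM in control and 104 and 130 with TGF-β (1.90-fold, log2 fold change 0.91 ± 0.12, adjusted p = 0.00142 in limma). All TGF-β libraries exceeded all control libraries for this gene. Mrpl41, a large subunit protein found only in mitochondria, went from 32.2 and 35.6 FPKM to 48.3 and 58.6 (0.64 ± 0.11, adjusted p = 0.00449). Mrps12, the protein of the decoding centre, went from 32.9 and 36.9 to 48.3 and 61.5 (0.63 ± 0.13, adjusted p = 0.00746), and its adjusted p was 0.0687 without control replicate 1. Mrpl54, Mrpl37 and Mrpl55, all large subunit proteins without bacterial counterpart, were also called higher, by 0.51 ± 0.15, 0.44 ± 0.11 and 0.43 ± 0.14. Each of these last 3 calls was lost when 1 of several libraries was left out. Without the filter on low values the calls of Mrpl54 and Mrpl55 were lost too, and with limma-voom that of Mrpl55. The highest adjusted p over all alternatives was 0.133, 0.0959 and 0.26. The remaining riser, Mrpl53, rested on 5 to 15 reads per library and is named for completeness, outside the rule.

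Mrpl13, which has a bacterial counterpart, fell furthest under TGF-β. Its level was 129 and 131 FPKM in control and 47.0 and 63.7 with TGF-β, 2.35-fold lower (-1.24 ± 0.14, adjusted p = 0.000658 in limma). The other falls were in the small subunit. Mrps27, an RNA-binding protein of the pentatricopeptide repeat family, went from 14.0 and 14.4 to 8.71 and 9.67 FPKM (-0.58 ± 0.11, adjusted p = 0.00501), with no overlap between groups. Mrps9 went from 21.5 and 21.8 to 13.5 and 14.6 FPKM (-0.59 ± 0.11, adjusted p = 0.00619, and adjusted p = 0.0506 without control replicate 2). Mrps26, found only in mitochondria, went from 33.9 and 38.8 to 21.1 and 27.5 (-0.57 ± 0.18, adjusted p = 0.0401) and lost its call after median ratio rescaling, with quantile normalization, without the filter on low values and without 5 of the libraries in turn, with adjusted p up to 0.197. By class, 5 of 20 large subunit genes without bacterial counterpart were called higher and 0 lower, against 1 higher and 1 lower of 25 with one. Of all genes tested, 10.3% were higher and 28.6% lower. The 5 include Mrpl54, Mrpl37 and Mrpl55, whose calls were lost without single libraries, and Mrpl53, which rested on 5 to 15 reads. After rescaling the class counts were 8 and 0, and 6 and 1 (all genes 18.5% and 17.4%). The difference between the classes was not tested. The lower-case genes mrpl9, mrpl11 and mrpl24, left out of the 25, were not called before or after rescaling.

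**Figure D2:**
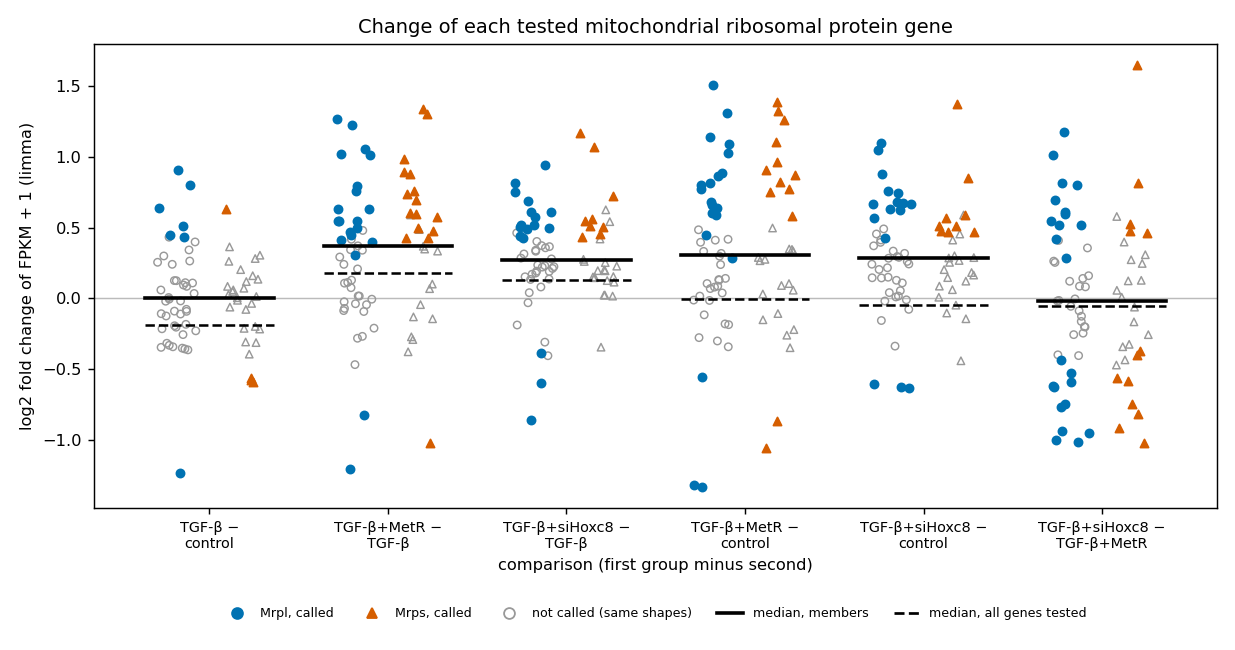
Each point is the log2 fold change of 1 tested gene in 1 of the 6 comparisons, circles for Mrpl and triangles for Mrps symbols, filled where called at an adjusted p under 0.05. The solid bar is the median of the members and the dashed bar that of all genes tested: under MetR against TGF-β they lie at 0.37 and 0.18, and Mrpl52, Mrps10 and Mrpl20 are the 3 filled points below 0.

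Methionine restriction on top of TGF-β went with higher levels of many of these genes on the deposited scale. Of 74, 33 (44.6%) were called higher and 3 (4.05%) lower than with TGF-β alone, against 34.8% and 19.0% of all genes tested. The median change was 0.37, and 0.18 over all genes. After median ratio rescaling 20 (27.0%) were higher and 10 (13.5%) lower (all genes 25.7% and 26.5%), with a median of 0.18 against 0.00. Part of the count thus follows the shift of all genes. The share called higher then lay near that of all genes, and the share called lower stayed below it. Large subunit symbols gave 18 higher and 2 lower of 45 (median 0.31) and small subunit symbols 15 higher and 1 lower of 29 (median 0.48). Leaving out TGF-β replicate 1, the lower of its pair in most of these genes, left 16 higher and 7 lower, and 5 were lower without MetR replicate 2.

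Mrps2, an early-binding protein of the small subunit, rose most in this comparison, from 13.1 and 11.8 FPKM with TGF-β to 27.4 and 39.8 with MetR (2.70-fold, 1.34 ± 0.17, adjusted p = 0.000584 in limma). Control and siHoxc8 libraries stood at 12.4 and 11.7 and at 16.9 and 17.1 FPKM, so only the MetR libraries stood apart at the top. Mrps34, a small subunit protein found only in mitochondria, went from 40.2 and 49.5 to 95.7 and 130 FPKM (2.51-fold, 1.30 ± 0.16, adjusted p = 0.000616). Mrpl43, a large subunit protein found only in mitochondria, went from 64.9 and 80.9 to 164 and 188 FPKM (2.42-fold, 1.27 ± 0.13, adjusted p = 0.000258). In all 3 genes the lower MetR library lay well above the higher TGF-β library. Mrpl50 (8.68 and 11.0 to 20.2 and 29.1 FPKM) and Mrpl46 (above), both found only in mitochondria, and Mrpl16 (14.8 and 18.0 to 31.4 and 37.0), close to the site of peptide bond formation, rose by 1.23 ± 0.18, 1.06 ± 0.17 and 1.02 ± 0.17. Mrpl15 went from 12.2 and 16.2 to 24.0 and 35.9 FPKM (1.01 ± 0.20) and Mrps28 from 8.93 and 8.25 to 16.9 and 19.1 (0.98 ± 0.11). The calls of these 8 genes held under every alternative tried, single-library omissions included. In 8 of 8 the second MetR library was the higher of the pair. Outside the rule, lower-case mrpl9 went from 19.2 and 19.7 FPKM with TGF-β to 39.4 and 54.1 with MetR. Its change was 1.21 ± 0.14 (adjusted p = 0.000503 in limma), while lower-case mrpl24 was not called (0.23 ± 0.16).

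The 3 falls went against the rest of the list. Mrpl52, a large subunit protein found only in mitochondria, stood at 57.2 and 56.4 FPKM in control, 46.0 and 58.7 with TGF-β, 22.9 and 21.0 with MetR and 52.9 and 48.8 with siHoxc8. Its MetR libraries thus lay below all 6 others, 2.39-fold under TGF-β (-1.21 ± 0.13, adjusted p = 0.000318 in limma). Mrps10, which has a bacterial counterpart, stood at 8.02 and 8.69 in control, 6.41 and 10.2 with TGF-β, 2.98 and 4.04 with MetR and 15.3 and 11.1 with siHoxc8 (MetR against TGF-β -1.02 ± 0.23, adjusted p = 0.00804). That call was lost without TGF-β replicate 2 (adjusted p = 0.0516). Mrpl20, raised by TGF-β, was back at 67.8 and 62.8 FPKM with MetR, near its control level, a fall of 0.83 on the log2 scale (SE 0.12, adjusted p = 0.00128). Mrpl52 and Mrps10 also lay below control in both MetR libraries, while Mrpl20 did not.

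**Figure D3:**
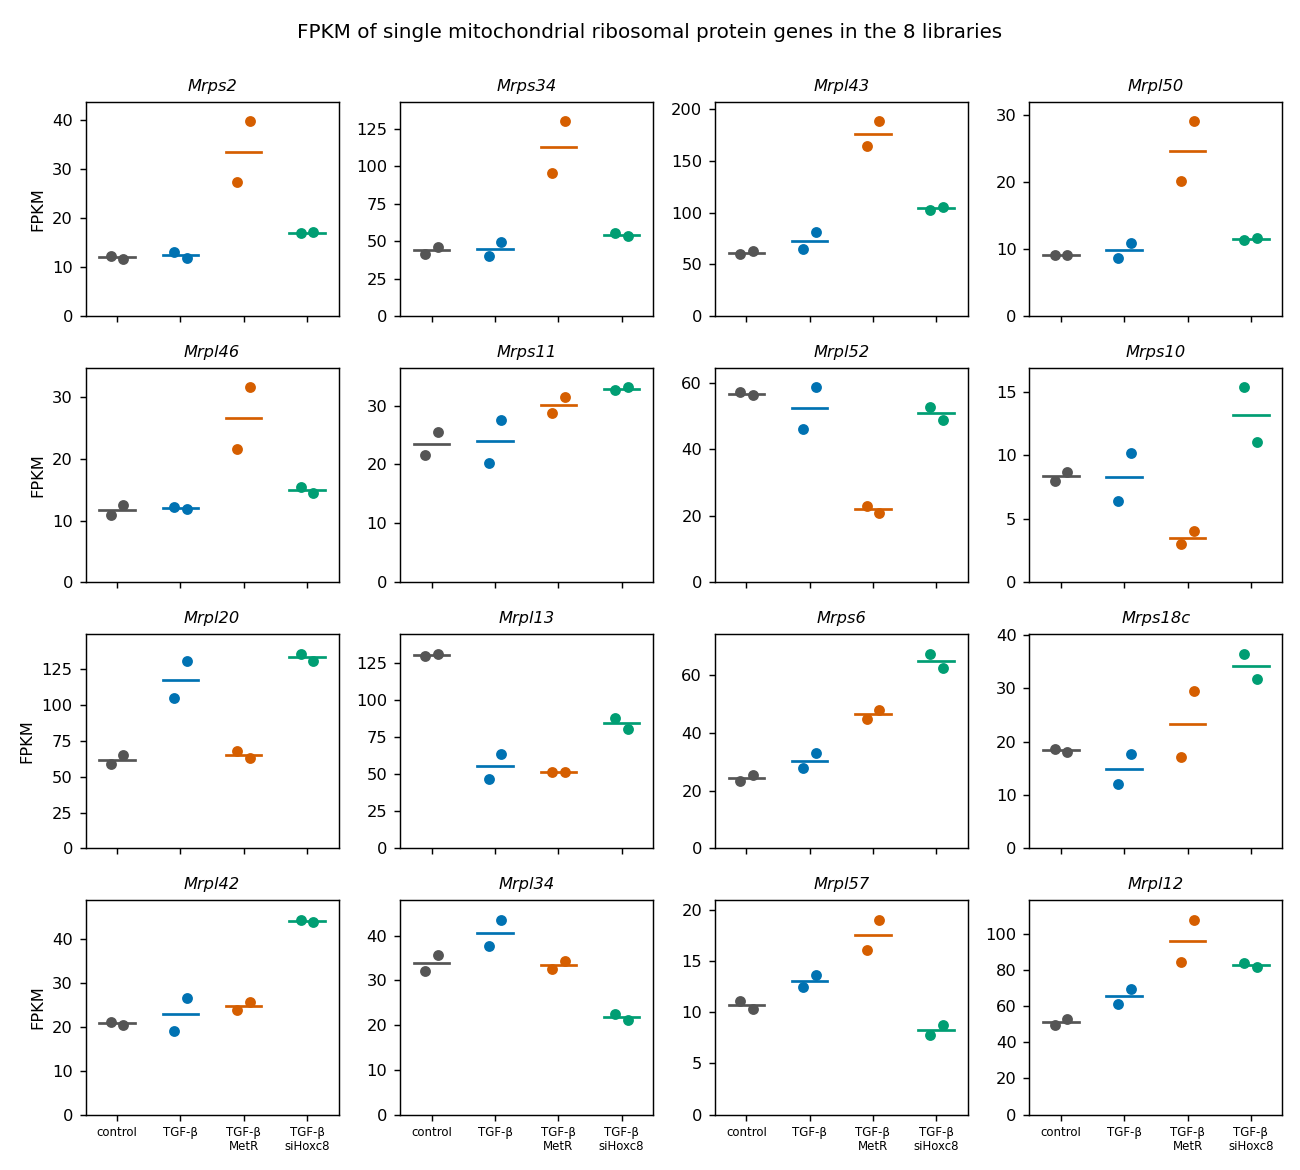
Points are FPKM in the single libraries of each group and bars the mean of the 2 libraries, for single genes on axes that start at 0. Mrps2, Mrps34, Mrpl43 and Mrpl50 are highest with MetR, Mrpl52 and Mrps10 lowest with MetR, Mrps6 and Mrpl42 highest with siHoxc8, and Mrpl34 lowest with siHoxc8.

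Among proteins of the ribosomal stalk and its base, where translation factors bind, Mrpl12 stood at 49.7 and 53.0 FPKM in control, 61.1 and 69.7 with TGF-β, 84.6 and 108 with MetR and 83.9 and 81.9 with siHoxc8. Its groups did not overlap, though those of MetR and siHoxc8 nearly met. The change with MetR against TGF-β was 0.54 ± 0.13 (adjusted p = 0.0102 in limma), a call lost without TGF-β replicate 1. Mrpl12 was not called with TGF-β against control (adjusted p = 0.0757) or siHoxc8 against TGF-β (adjusted p = 0.071). The first of these was called after median ratio rescaling (0.56, adjusted p = 0.00894). Mrpl10 was called higher with MetR (0.45 ± 0.14, adjusted p = 0.0312), a call lost under 9 of 15 alternatives. Under the lower-case symbol mrpl11, the neighbour of Mrpl10 and Mrpl12 in the structure had a value of -0.15 ± 0.11 (adjusted p = 0.301). It was called lower after median ratio rescaling (-0.36, adjusted p = 0.022) and with quantile normalization. Mrpl44, which carries a ribonuclease fold, went from 11.6 and 13.2 to 20.3 and 24.5 FPKM (0.80 ± 0.14, adjusted p = 0.00248), and Mrpl58, a peptidyl-tRNA hydrolase built into the large subunit, from 31.6 and 35.8 to 28.3 and 41.0 (0.02 ± 0.18, adjusted p = 0.947). Mrps30 rose by 0.74 ± 0.18 (adjusted p = 0.0116, and 0.0748 without TGF-β replicate 1), Mrps12 by 0.48 ± 0.13 (adjusted p = 0.0158, lost after rescaling and without TGF-β replicate 1), and Mrps22 gave 0.35 ± 0.13 (adjusted p = 0.0526). Of the 3 paralogs of the bacterial S18 protein, Mrps18b was called higher with MetR (0.76 ± 0.13, adjusted p = 0.00231). Mrps18a and Mrps18c gave 0.49 ± 0.22 and 0.59 ± 0.26 and were not called (adjusted p = 0.101 and 0.0868). The difference between the paralogs was not tested.

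With Hoxc8 silenced under TGF-β, the share of these genes called higher lay near that of all genes. Of 74 genes, 23 (31.1%) were called higher and 3 (4.05%) lower than with TGF-β alone, against 28.1% and 15.7% of all genes tested. The median change was 0.27, and 0.13 over all genes. After median ratio rescaling 14 (18.9%) were higher and 5 lower (all genes 21.0% and 22.1%), with a median of 0.11 against -0.01. Large subunit symbols gave 14 higher and 3 lower of 45, and small subunit symbols 9 higher and 0 lower of 29. The number called higher fell to 9 without TGF-β replicate 1, to 5 without siHoxc8 replicate 1 and to 12 without siHoxc8 replicate 2, and the number called lower was 1 without siHoxc8 replicate 1.

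Mrps6, which has a bacterial counterpart in the platform of the small subunit, stood at 23.4 and 25.4 FPKM in control, 27.7 and 33.1 with TGF-β, 45.0 and 48.0 with MetR and 67.5 and 62.4 with siHoxc8. Its 4 groups did not overlap, and the rise of siHoxc8 over TGF-β was 2.13-fold (1.07 ± 0.11, adjusted p = 0.000385 in limma). Mrps18c, the S18 paralog that keeps the bacterial position, had the largest fitted change, from 12.0 and 17.6 to 36.5 and 31.7 FPKM (1.17 ± 0.26, adjusted p = 0.00854), but its adjusted p was 0.0628 without TGF-β replicate 1 and 0.0565 without siHoxc8 replicate 1. Mrpl42, found only in mitochondria, went from 19.0 and 26.7 to 44.5 and 44.0 FPKM (0.94 ± 0.15, adjusted p = 0.00221), and the other 6 libraries lay between 19.0 and 26.7. Mrpl32, which is trimmed by a protease of the inner membrane before it joins the ribosome, went from 16.0 and 19.5 to 32.3 and 31.2 (0.81 ± 0.17, adjusted p = 0.00792, lost without TGF-β replicate 1 or siHoxc8 replicate 1). Mrpl51 rose by 0.75 ± 0.09 (15.7 and 16.2 to 27.8 and 27.2 FPKM) and Mrps28 by 0.73 ± 0.11. Mrpl13 recovered from 47.0 and 63.7 to 87.8 and 80.4 FPKM, still below control (0.61 ± 0.14, adjusted p = 0.0106, and 0.0764 without siHoxc8 replicate 1). Mrpl15 (0.61 ± 0.20, adjusted p = 0.0407) lost its call after median ratio rescaling, with quantile normalization, without the filter on low values and without 5 of the libraries in turn.

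All 3 falls with siHoxc8 were in the large subunit. Mrpl34, the counterpart of a small bacterial protein, stood at 32.0 and 35.7 FPKM in control, 37.7 and 43.6 with TGF-β, 32.6 and 34.2 with MetR and 22.4 and 21.2 with siHoxc8 (-0.86 ± 0.11, adjusted p = 0.000794 in limma). The siHoxc8 libraries lay below the other 6. Mrpl57, found only in mitochondria, went from 12.4 and 13.6 with TGF-β to 7.77 and 8.74 with siHoxc8, and was 16.1 and 19.0 with MetR. Its fall was 0.60 on the log2 scale (SE 0.12, adjusted p = 0.00643, and 0.0598 without siHoxc8 replicate 1). Mrpl37 went from 38.7 and 41.5 to 30.6 and 30.1 FPKM (-0.39 ± 0.11, adjusted p = 0.0202, lost without TGF-β replicate 2 or either siHoxc8 library), which is close to its control level of 28.9 and 29.5.

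Set against control cells, which the next comparisons share with the first, both combined treatments gave more rises than falls. MetR gave 28 higher and 5 lower of 74 (all genes 28.0% and 29.3%, median 0.31 against -0.01) and siHoxc8 22 higher and 3 lower (all genes 21.7% and 27.0%, median 0.28 against -0.05). After rescaling the counts were 33 and 6 for MetR (all genes 28.7% and 29.1%) and 27 and 3 for siHoxc8 (24.9% each way), with medians of 0.31 and 0.34. Mrpl43 (1.51 ± 0.13, adjusted p = 7.42e-05 in limma), Mrps2 (1.39 ± 0.17) and Mrps34 (1.33 ± 0.16) led with MetR, and Mrpl52 (-1.33 ± 0.13), Mrpl13 (-1.32 ± 0.14) and Mrps10 (-1.06 ± 0.23) were lowest. The other 2 falls with MetR, named after their values were seen, were Mrps9 (-0.87) and Mrpl2 (-0.56). With siHoxc8 the leaders were Mrps6 (1.38 ± 0.11, adjusted p = 0.000108), Mrpl20 (1.09 ± 0.12) and Mrpl42 (1.05 ± 0.15). Its falls were Mrpl35 (-0.64 ± 0.18, lost without either control library or siHoxc8 replicate 2), Mrpl13 (-0.63 ± 0.14, lost without control replicate 2 or siHoxc8 replicate 2) and Mrpl34 (-0.61 ± 0.11). The number called higher with siHoxc8 was 12 without either control library or siHoxc8 replicate 1. Only 1 was lower without control replicate 2 or siHoxc8 replicate 2, and with MetR 8 were lower without MetR replicate 2.

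By structural class, the large subunit genes without bacterial counterpart gave 11 called higher and 1 lower of 20 with MetR against control, and those with one gave 6 higher and 2 lower of 25. The 25 leave out the lower-case genes mrpl9, mrpl11 and mrpl24, which also have bacterial counterparts. Of these, mrpl9 was called higher with MetR against control (0.79 ± 0.14, adjusted p = 0.00256 in limma), and mrpl11 and mrpl24 were not called. The small subunit genes gave 3 higher and 0 lower of 10 without a bacterial counterpart, and 7 higher and 2 lower of 16 with one. With siHoxc8 against control the large subunit counts were 7 higher and 0 lower of 20 without a counterpart, and 6 higher and 3 lower of 25 with one. The small subunit counts were 0 and 0 of 10, and 9 higher and 0 lower of 16. Of all genes, 28.0% were higher and 29.3% lower with MetR, and 21.7% and 27.0% with siHoxc8. After rescaling the counts, in the same order, were 11 and 1, 9 and 3, 5 and 0, and 7 and 2 with MetR. With siHoxc8 they were 8 and 0, 8 and 3, 1 and 0, and 10 and 0. Differences between classes or between treatments were not tested.

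The direct comparison of siHoxc8 with MetR, both under TGF-β, split the members about evenly. It gave 17 higher and 19 lower of 74 (all genes 24.9% and 29.3%), a median of -0.02 against -0.06 for all genes, and after rescaling 20 higher and 18 lower (all genes 27.0% and 27.6%) with a median of 0.03. Mrps10 was 3.77-fold higher with siHoxc8 (1.65 ± 0.23, adjusted p = 0.000884 in limma), and Mrpl52 (1.18 ± 0.13) and Mrpl20 (1.02 ± 0.12) followed. Mrps34 (-1.03 ± 0.16), Mrpl50 (-1.02 ± 0.18) and Mrpl57 (7.77 and 8.74 against 16.1 and 19.0 FPKM) were lowest. The number higher was 10 without siHoxc8 replicate 1 and the number lower 31 without MetR replicate 1. These 6 genes each differed at least 2-fold between groups whose summed shares, given above, were both higher than in control.

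The other genes of mitochondrial translation were taken from lists by function. Among 5 mitoribosomal proteins with other symbols, Gadd45gip1, a large subunit protein, stood at 29.2 and 29.1 FPKM in control, 43.5 and 51.3 with TGF-β, 60.4 and 84.1 with MetR and 67.4 and 66.9 with siHoxc8. It was called higher with TGF-β than control and with both combined treatments than TGF-β (0.68 ± 0.16, 0.58 ± 0.16 and 0.50 ± 0.16). After rescaling its calls with MetR and with siHoxc8 against TGF-β were lost (adjusted p = 0.0588 and 0.0912 in limma). Aurkaip1, a small subunit protein, rose with TGF-β (0.53 ± 0.11) and fell when siHoxc8 was added (-0.71 ± 0.11, 54.3 and 59.1 FPKM against 90.3 and 96.9), and Chchd1 rose with siHoxc8 (0.67 ± 0.19). In all, 2 of the 5 were higher with TGF-β, 1 with MetR, and 2 higher and 1 lower with siHoxc8. After rescaling these were 3 higher with TGF-β, 0 higher and 1 lower with MetR, and 1 higher and 1 lower with siHoxc8. Before rescaling, 10.3% of all genes were higher with TGF-β, 34.8% with MetR, and 28.1% higher and 15.7% lower with siHoxc8.

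Of 23 factors that assemble the mitoribosome or modify its RNA, 16 were higher and 0 lower with MetR than with TGF-β (median 0.56, and 13 and 0 with a median of 0.35 after rescaling), while TGF-β against control gave 0 and 3 (2 and 1 after rescaling) and siHoxc8 against TGF-β 6 and 1 (5 and 6 after rescaling). Mrm3, a methyltransferase of the large ribosomal RNA, went from 6.45 and 6.38 FPKM with TGF-β to 20.3 and 30.1 with MetR (1.79 ± 0.18, adjusted p = 0.000274 in limma). Rcc1l (1.58 ± 0.16), the helicase Ddx28 (1.54 ± 0.21) and the methyltransferase Mrm2 (1.30 ± 0.17) followed. Directly against MetR, siHoxc8 had 14 of the 23 lower and 1 higher (all genes 29.3% and 24.9%). Of 19 translation factors, 0 were higher and 6 lower with TGF-β than control, 10 higher and 2 lower with MetR than TGF-β, and 5 higher and 0 lower with siHoxc8 than TGF-β. After rescaling these were 0 and 3, 8 and 4, and 2 and 1. Of all genes tested, 10.3% were higher and 28.6% lower with TGF-β than control. With MetR against TGF-β the shares were 34.8% and 19.0%, and with siHoxc8 against TGF-β 28.1% and 15.7%. After rescaling they were 18.5% and 17.4%, 25.7% and 26.5%, and 21.0% and 22.1%. Before rescaling, the siHoxc8 shares called higher, 26.1% of assembly and 26.3% of translation factors, lay near that of all genes. So did the 31.6% of translation factors called lower with TGF-β. Gatb, of the enzyme that makes glutaminyl-tRNA, rose by 1.45 ± 0.15 with MetR, and the initiation factor gene Mtif2 by 1.11 ± 0.24 after a fall of 0.81 with TGF-β (SE 0.24) that was lost after rescaling (adjusted p = 0.0666). Pdf, which removes the formyl group from the methionine that starts each new chain, fell from 20.9 and 24.3 to 9.76 and 9.78 FPKM with MetR (-1.13 ± 0.11, adjusted p = 0.000241). The other fall with MetR was Slirp (-0.75 ± 0.19), which stabilises mitochondrial messenger RNA.

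Genes of mitochondrial transcription and genome maintenance gave 4 higher and 1 lower of 10 with MetR against TGF-β, led by Polrmt, the mitochondrial RNA polymerase (1.36 ± 0.12), and the helicase Twnk (1.25 ± 0.19). With siHoxc8 against TGF-β 1 was higher and 1 lower. After rescaling these were 4 and 2, and 1 and 1. Of 10 chaperones and proteases, 4 were higher and 1 lower with MetR, among them Lonp1 (1.41 ± 0.13) and Hspa9 (0.96 ± 0.15), and 5 were higher with siHoxc8, among them Hspe1 (1.12 ± 0.19). After rescaling 2 were higher and 1 lower with MetR, and 3 higher with siHoxc8. Of all genes 34.8% were called higher and 19.0% lower with MetR, and 28.1% and 15.7% with siHoxc8. After rescaling these shares were 25.7% and 26.5%, and 21.0% and 22.1%. The 40% called higher with MetR in either list lay near the share of all genes. After rescaling, the 20% of chaperones and proteases did not exceed it. Of 9 nuclear regulators tested, 8 were higher with MetR than with TGF-β, 7 with siHoxc8 than with TGF-β, and 2 were lower with TGF-β than in control. After rescaling these counts were 7, 4 and 2. With TGF-β against control 28.6% of all genes were lower, and 17.4% after rescaling. Myc, a growth regulator, went from 35.7 and 36.6 FPKM with TGF-β to 94.4 and 162 with MetR (1.75 ± 0.22, adjusted p = 0.000616 in limma) and was 40.3 and 43.5 with siHoxc8. Gabpa, which binds the ETS motif, fell with TGF-β (-0.64 ± 0.14) and was higher with MetR and with siHoxc8 (0.69 ± 0.14 and 0.62 ± 0.14). Nrf1 and Yy1, named here because their motifs were searched, rose with MetR by 0.65 ± 0.12 and 0.58 ± 0.10 and with siHoxc8 by 0.47 ± 0.12 and 0.40 ± 0.10, and the siHoxc8 calls were lost after rescaling (adjusted p = 0.0545 and 0.0687). Whether any of these regulators acts on the members was not tested.

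**Figure D4:**
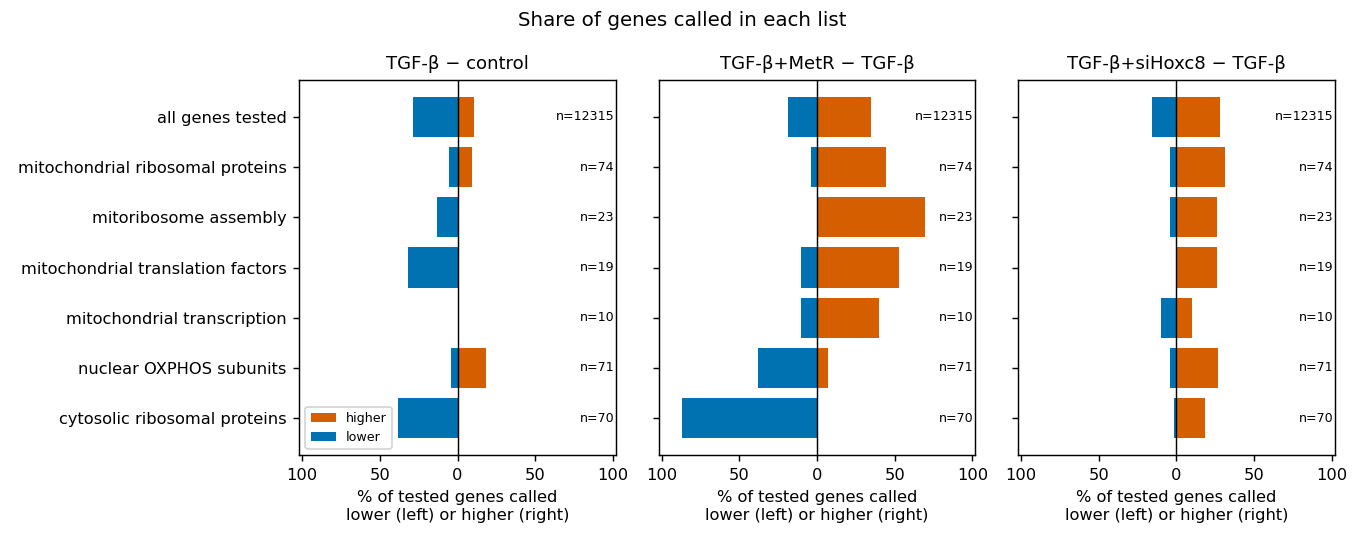
Bars give the percentage of tested genes called higher (right) or lower (left) in each list for the 3 main comparisons, with the number tested. Under MetR against TGF-β the mitochondrial ribosomal protein genes point mainly to the right (44.6% higher), the cytosolic ribosomal protein genes to the left (87.1% lower).

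The last sets of genes bear on the same machinery: the cytosolic ribosomal proteins, which form the ribosome that makes the mitochondrial proteins, and the nuclear subunits of oxidative phosphorylation, which join the proteins that the mitoribosome makes. Cytosolic ribosomal protein genes went the other way from the members under methionine restriction. Of 70 tested, 0 were higher and 61 lower with MetR than with TGF-β (median -1.27, members 0.37), 0 and 27 with TGF-β than control (median -0.33), and 13 and 1 with siHoxc8 than TGF-β (median 0.10). After rescaling the counts were 0 and 63, 1 and 16, and 8 and 7. Against MetR, siHoxc8 had 67 of 70 higher (all genes 24.9%). Nuclear subunits of oxidative phosphorylation, 71 tested, gave 13 higher and 3 lower with TGF-β than control (median 0.18), 5 and 27 with MetR than TGF-β (median -0.19) and 19 and 3 with siHoxc8 than TGF-β (median 0.11). After rescaling these were 37 and 2, 4 and 39, and 12 and 10, the last with a median of -0.06. Of all genes tested, 10.3% were higher and 28.6% lower with TGF-β than control. With MetR against TGF-β these shares were 34.8% and 19.0%, and with siHoxc8 against TGF-β 28.1% and 15.7%. After rescaling they were 18.5% and 17.4%, 25.7% and 26.5%, and 21.0% and 22.1%. The siHoxc8 shares higher before rescaling, 26.8% of oxidative phosphorylation and 18.6% of cytosolic genes, did not exceed that of all genes. Within mitochondria, then, MetR against TGF-β gave more rises than falls for ribosomal proteins and more falls than rises for respiratory chain subunits. The genes of these sets differ in length, with a median of 1084 bases implied by the FPKM values for the members, 710 for cytosolic ribosomal proteins, 683 for respiratory chain subunits and 2203 for all genes, and the part of length in the result was not tested.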

How the data were processed

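RNA-seq values of all 8 libraries came from 1 table of FPKM per gene symbol that the authors deposited, per the labels. The submitters' processing notes list featureCounts, Bowtie2 2.3.5.1, Trim Galore and deepTools without roles, and the rat build rn6. The annotation and the strand setting were not given in the sources used here. Chromatin samples, 20 in number, were not analysed here.

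Members, lists and the rule for named genes were chosen with earlier results of these data known. Reads were recovered with the smallest gene length that made all values of a gene above 0 whole reads (tolerance 0.001). Such a length was found for 100.0% of the 19435 genes above 0, hence the depths. For genes above 0 in few libraries this is easily met, so the percentage is no check for them. limma 3.58.1 in R 4.3.3 was fitted to log2(FPKM + 1) in 1 model of the 4 groups, without covariates and with a variance trend (4 residual and 3.47 prior degrees of freedom). This scale understates changes of low genes. P-values are two-sided. The rule names the 8 largest rises and falls among called members with at least 5 FPKM and groups that do not overlap in the 3 main comparisons (3 in the others), the highest and lowest members by mean, fixed genes (Mrpl12, mrpl11, Mrpl10, Mrpl44, Mrpl58, Mrps12, Mrps22, Mrps34, Mrps30, the Mrps18 paralogs and Hoxc8) and up to 4 genes per list. Exceptions are stated. Scripts were tested on simulated data. Alternatives were another pseudocount (0.1), no filter, a mean of at least 5 FPKM, median ratio rescaling, quantile normalization, limma-voom on the recovered reads, a replicate block and leaving out each library.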

Additional observations from a re-analysis of the deposited data

How the results depend on the processing

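Of 83 results for named genes under 15 alternatives, none that was called changed sign. Results that were not called could, such as TGF-β minus control for Mrps34 (-0.12 to 0.24) and mrpl11 (-0.08 to 0.26), and MetR minus TGF-β for Mrpl58 (-0.24 to 0.28). Of 1245 values, 1143 kept their side of the threshold, 78 lost it and 24 gained it, and 37 of 58 calls held under every alternative tried, 50 with all libraries kept. Counts of members called moved by over 1.5 times in 33 of 180 cases. For TGF-β against control the number higher (7) was 4 without the filter, 21 after rescaling and 13 with quantile normalization. For MetR against TGF-β the number higher (33) was 20 after rescaling, and the number lower (3) was 10 after rescaling and 9 with quantile normalization. For siHoxc8 against TGF-β the number higher (23) was 14 and the number lower (3) was 5 under both. Leaving out 1 library gave, higher and lower, 3 to 12 and 3 to 11 for TGF-β against control, 16 to 42 and 2 to 7 for MetR against TGF-β, 5 to 33 and 1 to 4 for siHoxc8 against TGF-β, 23 to 41 and 4 to 8 for MetR against control, 12 to 32 and 1 to 4 for siHoxc8 against control, and 10 to 22 and 13 to 31 for siHoxc8 against MetR. In those fits a lone library is assumed to vary like the other groups. Apart from median ratio rescaling, the shares of all genes called under the alternatives are not given. Whether a count moved with the calls of all genes can therefore not be told. Unless the construction shows it, the cause was not tested.

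Over all tested genes, same-numbered libraries deviated together only for TGF-β and MetR (r = 0.202). The other 5 pairs of groups gave r between -0.0196 and 0.0239, so the numbers were not taken as pairs. Among the members, however, replicate 2 was higher in 69 of 74 with TGF-β and in 64 of 74 with MetR. Whether these 2 groups are paired for the members was not tested. A fit without 1 library of either group would break such a pair. The replicate block fits 1 shift shared by all 4 groups, so it cannot show this pairing. With the replicate block the counts higher and lower were 7 and 5, 35 and 3, 26 and 3, 32 and 5, 23 and 4, and 16 and 20, in the order above. Depth limits Mrpl36, Mrpl53 and Mrps21l, each at 15 reads or fewer in every library.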
